A study of Mus musculus with 16 samples.

Results

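The genes described here work in S phase, when DNA is copied, and in mitosis, when chromosomes are parted. They were listed by name, 34 symbols in all, and a gene was included where the array's signal table carried its symbol: 29 of the 18138 symbols, with 48 of the 25697 probes. The symbols Cdk1, Racgap1, Aurkb, Mki67 and Kif20a were not matched, although Cdk1 is there under its older name Cdc2a. Of the 29 genes, 5 serve DNA synthesis and 24 serve mitosis. Liver RNA from 16 mouse samples was hybridised, 1 Illumina array per sample, in 4 groups of 4. Conditional c-Met knockout (KO) and wild type (WT) mice, all on a mixed 129SV/C57BL/6 background, received a high cholesterol diet or regular chow for 30 days. The groups were high cholesterol KO, high cholesterol WT, chow KO and chow WT. The high cholesterol feed contained 2% cholesterol together with 0.5% sodium cholate, the salt of a bile acid. Hepatocyte growth factor signals through c-Met, whose deletion the series title places in the liver. The labels used here give no age, sex or cell type of the deletion and do not say that each sample is a separate animal, so the p-values measure the spread between samples, which may be technical.

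Before a cell divides it makes deoxyribonucleotides, copies its DNA and then builds a spindle that pulls the copies apart. Transcripts of the nucleotide enzymes are known to rise from the start of S phase, and those of the mitotic kinases, checkpoint proteins and spindle proteins to rise later, in G2 and mitosis. Adult hepatocytes rarely divide unless the liver is injured or loses mass, so these transcripts are usually scarce in whole liver. In bulk tissue, fewer dividing cells and less RNA per dividing cell cannot be told apart.

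Many mitotic genes are known to share a CHR element (the letters TTTGAA, read here on both strands) near the transcription start, often with an upstream CCAAT box (the letters CCAAT, both strands). These are the elements that the DREAM and MuvB complexes and the factor NF-Y bind. RefSeq promoters of build GRCm38.p6, from 250 bases before the start to 50 after it, were found for 27 of the 29 genes. No promoter was matched for Ccna2 and Stmn1. The promoters of 4 mitosis genes and 1 DNA synthesis gene, all higher on the high cholesterol diet in WT livers, are printed to show where these elements lie. They are Cdc20 (chr4:118437294-118437593, minus strand), Cdca3 (chr6:124829926-124830225, plus strand), Cenpa (chr5:30666636-30666935, plus strand), Cdc2a (chr10:69352863-69353162, minus strand) and Rrm2 (chr12:24708004-24708303, plus strand). Capitals mark the CHR elements, CCAAT boxes and E2F sites found, on either strand, and all other bases are in lower case.
Cdc20: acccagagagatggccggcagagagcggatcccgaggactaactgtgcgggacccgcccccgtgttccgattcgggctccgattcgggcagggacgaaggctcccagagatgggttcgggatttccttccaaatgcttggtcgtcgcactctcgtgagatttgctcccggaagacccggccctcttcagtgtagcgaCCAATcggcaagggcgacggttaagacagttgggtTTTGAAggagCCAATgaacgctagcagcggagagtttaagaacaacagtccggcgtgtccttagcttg
Cdca3: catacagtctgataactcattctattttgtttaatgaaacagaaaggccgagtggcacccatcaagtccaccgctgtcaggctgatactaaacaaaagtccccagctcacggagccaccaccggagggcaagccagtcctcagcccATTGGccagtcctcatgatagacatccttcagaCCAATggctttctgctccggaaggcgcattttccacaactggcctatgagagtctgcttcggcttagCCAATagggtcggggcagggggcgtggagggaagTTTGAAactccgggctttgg
Cenpa: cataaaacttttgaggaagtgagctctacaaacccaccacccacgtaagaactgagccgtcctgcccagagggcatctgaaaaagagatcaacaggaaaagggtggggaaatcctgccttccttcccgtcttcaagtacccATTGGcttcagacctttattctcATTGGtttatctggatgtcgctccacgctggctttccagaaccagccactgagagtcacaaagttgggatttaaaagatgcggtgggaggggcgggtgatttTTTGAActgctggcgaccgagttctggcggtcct
Cdc2a: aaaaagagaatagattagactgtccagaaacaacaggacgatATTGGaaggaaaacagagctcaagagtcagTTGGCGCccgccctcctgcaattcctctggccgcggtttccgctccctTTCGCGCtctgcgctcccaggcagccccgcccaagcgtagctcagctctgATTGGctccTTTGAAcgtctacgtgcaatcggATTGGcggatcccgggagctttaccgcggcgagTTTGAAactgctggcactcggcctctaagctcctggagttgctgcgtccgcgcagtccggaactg
Rrm2: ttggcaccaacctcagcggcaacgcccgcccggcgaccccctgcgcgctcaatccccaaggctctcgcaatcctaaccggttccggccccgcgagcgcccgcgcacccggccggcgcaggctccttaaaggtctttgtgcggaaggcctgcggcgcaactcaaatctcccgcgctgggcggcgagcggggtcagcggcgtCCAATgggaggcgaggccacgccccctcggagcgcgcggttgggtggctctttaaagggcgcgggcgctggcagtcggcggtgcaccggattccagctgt

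A CHR element was found in 16 of 22 mitosis promoters (72.7%) and in 0 of 5 DNA synthesis promoters, against 4893 of all 27025 promoters (18.1%). A CCAAT box was found in 18 of 22 mitosis promoters (81.8%) and 3 of 5 DNA synthesis promoters (60%), against 37.9% of all promoters. Both stood together in 16 of 22 mitosis promoters and in 7.12% of all promoters. In Cdc20 the CHR element began 18 bases before the start, and in Cenpa 17 bases after it. The 21 CHR matches of the mitosis genes had a median position of -15 relative to the start, and 76.2% lay within 50 bases of it, against a median of -125 and 24.8% for the 5632 matches of all promoters. An E2F site (TTGGCGC or TTCGCGC, both strands), the element of many S phase genes, was found in 4 of 22 mitosis promoters (18.2%, those of Ccnb1, Cdc2a, Hmmr and Ect2) and 0 of 5 DNA synthesis promoters, against 3.98% of all promoters. The form TTGGCGC shares letters with a CCAAT box read on the other strand, and in Ccnb1 and Ect2 the E2F match overlaps a CCAAT box. None of these motifs was found in the windows of Tyms, Tk1, Mad2l1, Nusap1, Birc5 and Tacc3. A match is a string of letters and shows no binding.

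**Figure D1:**
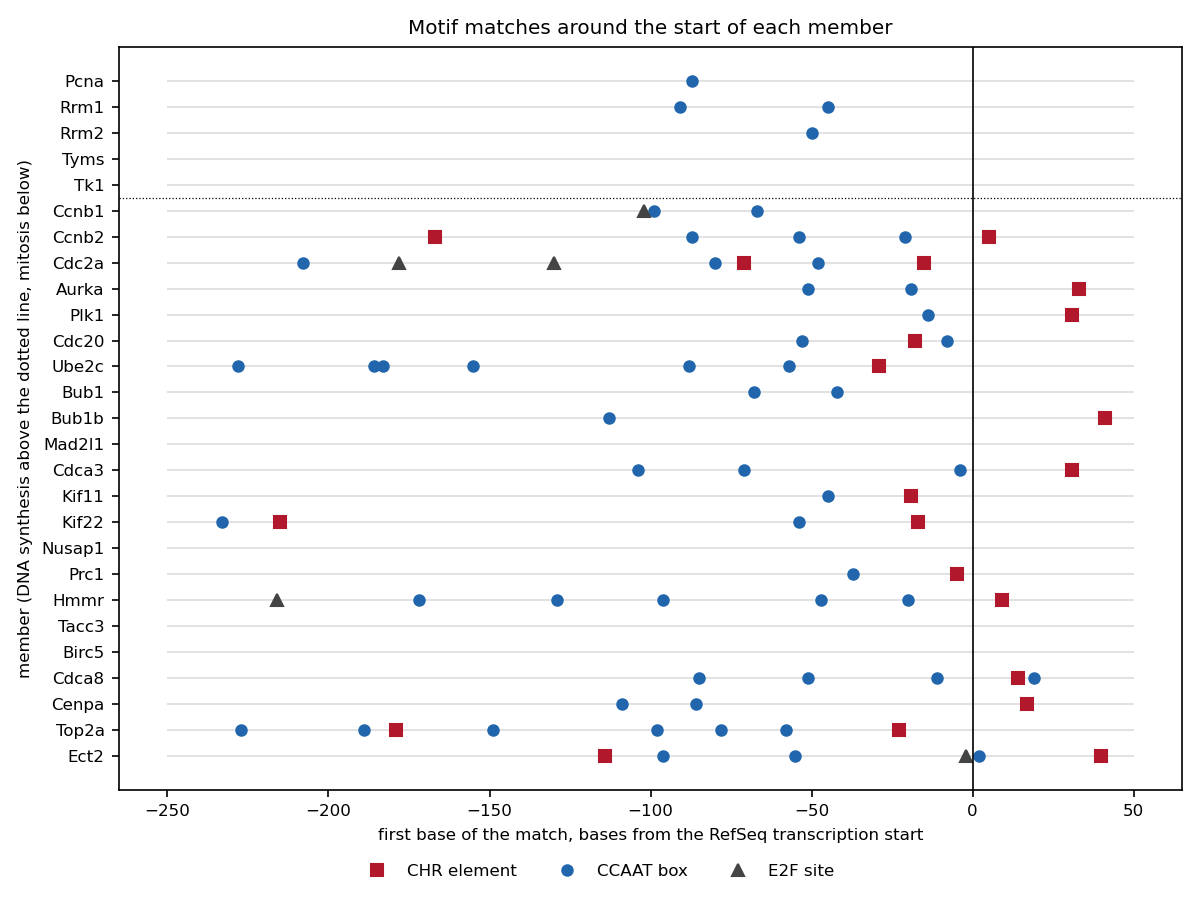
Positions of the motif matches in the 27 promoters, 1 line per gene, with distance from the RefSeq transcription start in bases on the horizontal axis. CHR elements (red squares) of the mitosis genes sit mostly within 50 bases of the start, CCAAT boxes (blue circles) mostly before it, E2F sites (grey triangles) lie in 4 mitosis promoters, and the 5 DNA synthesis genes above the dotted line have no CHR element.

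Most of these transcripts were close to the detection limit. A probe counted as detected where its detection p was under 0.05, and a gene was tested where a probe was detected on at least 4 of the 16 arrays. By that rule 17 of the 29 genes were tested (58.6%, against 51.1% of all symbols), 4 of DNA synthesis and 13 of mitosis. Pcna, the clamp of the replicative polymerases, was detected on 0 arrays, as were the mitotic cyclins Ccna2 and Ccnb2, Ube2c, Bub1, Hmmr and Ect2. Ccnb1 and Cdca8 were detected on 3 arrays each, Kif11 and Stmn1 on 2 each, and Tacc3 on 1. The tested genes include some that entered through the group where they were high: Cdc2a and Nusap1 were each detected on 3 of 4 high cholesterol WT arrays and on 0 of 4 chow WT arrays. Counts over the 17 therefore describe those genes and not all 29.

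Each array of the series detected 10028 to 11952 probes, with a 75th percentile of 61.4 to 113 intensity units. Background noise was split by diet. Over the probes that no array detected, the SD was never below 6.54 with the high cholesterol feed and never above 5.51 with chow. The lowest detected log2 level overlapped between diets, at 4.96 for high cholesterol WT replicate 3 and 5.00 for chow WT replicate 2. How far this noise moves diet differences or detection counts of genes near background was not tested. The probe for Met, the targeted gene, was detected on 1 of 4 high cholesterol KO, 1 of 4 high cholesterol WT, 3 of 4 chow KO and 2 of 4 chow WT arrays. Its KO minus WT difference was -0.04 ± 0.19 on the high cholesterol diet (limma adjusted p = 0.970) and 0.38 ± 0.19 on chow (adjusted p = 0.330), and where its probe lies relative to the deleted exons was not known, so it could not check the genotype labels. A single array stood apart for the cell cycle genes. High cholesterol WT replicate 3 held the highest level of all 16 arrays for 15 of the 17 tested genes, 3 of 4 for DNA synthesis and 12 of 13 for mitosis, while it held the highest level for 10.7% of all tested genes. On that array 21 of the 29 genes were detected, against 11 to 17 on the others. It also had the highest 75th percentile, 113. Calls that change without it are given with and without it.

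The first comparison set the high cholesterol diet against chow in WT livers. Of the 17 tested genes 7 rose and 0 fell: Rrm2 for DNA synthesis, and Cdc2a, Cdc20, Mad2l1, Cdca3, Prc1 and Cenpa for mitosis. Over all tested genes 13.6% rose, 11.8% fell and 25.4% passed in either direction. The median log2 difference was 0.31 for the 4 DNA synthesis genes, 0.92 for the 13 mitosis genes and -0.02 for all genes. All 13 mitosis genes had a positive difference, against 48.2% of all genes. Differences below are log2 values with the standard error from limma on 4 arrays per group, adjusted by Benjamini-Hochberg over all 9265 tested genes.

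Rrm2, the small subunit of ribonucleotide reductase that limits deoxyribonucleotide supply, was at log2 normalized intensities of 5.46, 5.45, 5.99 and 5.33 on the high cholesterol WT arrays, against 4.95, 4.90, 4.53 and 4.52 on the chow WT arrays. The groups did not overlap, and the last 3 chow values came from arrays where this probe was not detected. Rrm2 rose by 0.84 ± 0.17 (adjusted p = 0.00212). Rrm1, the large subunit of the same enzyme, was at 5.93, 6.09, 7.50 and 6.67 on high cholesterol WT arrays, against 5.84, 6.34, 5.93 and 6.00 on chow WT arrays. These groups overlapped, and its difference of 0.52 ± 0.29 did not pass (adjusted p = 0.207).

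The 2 thymidylate enzymes gave no such difference. Tyms, thymidylate synthase, was at 6.61, 6.39, 7.36 and 6.68 on high cholesterol WT arrays, against 6.61, 6.98, 6.48 and 6.58 on chow WT arrays, a difference of 0.10 ± 0.22 (adjusted p = 0.783). Tk1, the thymidine kinase of the salvage route, was at 8.32, 8.56, 8.74 and 7.73 in high cholesterol WT livers, against 8.52, 8.97, 8.36 and 8.68 in chow WT livers. Its difference was -0.30 ± 0.23 (adjusted p = 0.366), the only negative one among the 17.

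Among the kinases, Cdc2a, the kinase that starts mitosis, was at 5.73, 5.23, 6.95 and 4.99 on high cholesterol WT arrays, the last of these not detected, against 4.79, 4.99, 4.51 and 4.43 on chow WT arrays, none of them detected. It rose by 1.05 ± 0.30 (adjusted p = 0.0177). The chow WT group holds only background, so the ratio of group means was given as at least 1.77-fold for Cdc2a. It includes high cholesterol WT replicate 3, and the bound allows for background, not for the spread between arrays. Plk1, the Polo kinase of mitotic entry and exit, was at 5.31, 5.19, 7.91 and 5.34 on high cholesterol WT arrays, against 5.01, 4.61, 5.18 and 5.31 on chow WT arrays. Its high mean came from replicate 3, and the difference of 0.91 ± 0.44 did not pass (adjusted p = 0.138). Aurka, the kinase of the spindle poles, differed by 0.50 ± 0.28 (adjusted p = 0.202).

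The checkpoint and anaphase genes held 3 of the 7 passing genes. Cdc20, the activator of the anaphase-promoting complex, was at 6.06, 6.03, 8.34 and 6.06 on high cholesterol WT arrays, against 4.83, 5.62, 4.67 and 4.93 on chow WT arrays. The groups did not overlap, the probe was not detected on chow WT replicates 1 and 3, and Cdc20 rose by 1.61 ± 0.53 (adjusted p = 0.0336). Cdca3, a protein linked to mitotic entry, was at 6.97, 7.16, 8.70 and 6.67 in high cholesterol WT livers, against 5.83, 5.70, 5.44 and 6.08 in chow WT livers. These groups did not overlap either, and Cdca3 rose by 1.61 ± 0.36 (adjusted p = 0.00382). Mad2l1, the checkpoint protein that holds Cdc20 inactive until chromosomes are attached, was at 6.36, 6.07, 7.44 and 5.91 on high cholesterol WT arrays, against 6.06, 5.73, 4.94 and 5.36 on chow WT arrays. It rose by 0.92 ± 0.32 (adjusted p = 0.0395), with 1 chow array above the lowest high cholesterol array. Bub1b, another checkpoint protein, was near background, with a difference of 0.06 ± 0.19 (adjusted p = 0.844).

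Of the spindle genes, Prc1, which bundles the microtubules of the central spindle, was at 5.90, 6.51, 8.60 and 6.22 on high cholesterol WT arrays, against 5.64, 5.81, 4.93 and 5.50 on chow WT arrays. The groups did not overlap, and Prc1 rose by 1.34 ± 0.47 (adjusted p = 0.0431). Nusap1, a spindle microtubule protein, was detected on 0 of 4 chow WT arrays. Its ratio of group means was at least 1.69-fold with high cholesterol WT replicate 3 included, and its difference of 0.99 ± 0.39 did not pass (adjusted p = 0.0737). Kif22, a chromosome-bound kinesin, differed by 0.65 ± 0.32 (adjusted p = 0.151).

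Cenpa, the histone H3 variant that marks centromeres, was at 8.87, 8.62, 10.15 and 8.61 in high cholesterol WT livers, against 7.42, 7.76, 7.77 and 8.22 in chow WT livers. The groups did not overlap, and Cenpa rose by 1.27 ± 0.29 (adjusted p = 0.00433). Birc5, the survivin subunit of the chromosomal passenger complex, differed by 0.78 ± 0.38 (adjusted p = 0.147), and Top2a, the topoisomerase that untangles chromosomes, by 0.48 ± 0.30 (adjusted p = 0.250). In all, 5 of the 17 genes had no overlap between the diets, with the high cholesterol WT arrays above the chow WT arrays, against 13% of all genes.

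**Figure D2:**
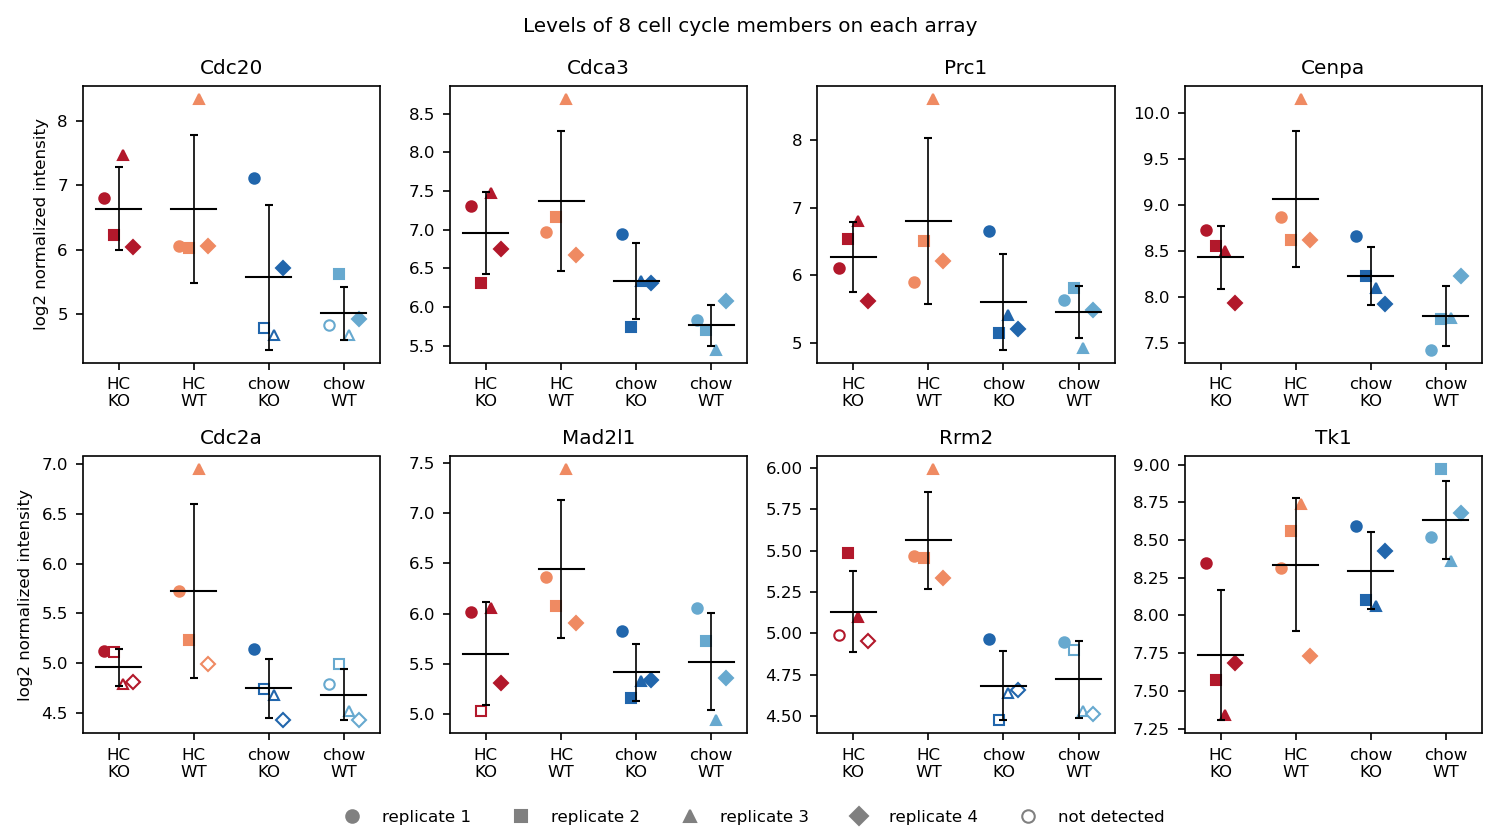
Log2 normalized intensity of 8 genes on each array, by group (HC, high cholesterol), with 1 marker shape per replicate number and the mean ± SD of 4 arrays as black bars. Open markers were not detected, and high cholesterol WT replicate 3 (orange triangle) is the highest array for all of them but Tk1.

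Part of the WT diet difference rested on high cholesterol WT replicate 3. This array was left out of the fit alone, while normalization, the detection filter and the choice of probe still used it. Top2a was detected on 4 arrays, the least the filter allows, and met it only with that array. Without it, 4 of the 17 genes passed, with 11.8% of all genes higher: Rrm2 at 0.69 (adjusted p = 0.00759), Cdc2a at 0.64 (adjusted p = 0.0338), Cdca3 at 1.17 (adjusted p = 0.00738) and Cenpa at 0.90 (adjusted p = 0.00746). Cdc20 at 1.04 (adjusted p = 0.114), Prc1 at 0.74 (adjusted p = 0.128) and Mad2l1 at 0.59 (adjusted p = 0.134) no longer did. Of the genes that had not passed, the differences without that array were 0.25 for Plk1, 0.23 for Birc5, 0.23 for Kif22, 0.44 for Nusap1, 0.11 for Aurka, 0.08 for Top2a and 0.20 for Rrm1. The median was then 0.05 for the DNA synthesis genes and 0.44 for the mitosis genes, with 12 of the 13 mitosis genes positive. Leaving out chow WT replicate 3 also left 4 genes and chow WT replicate 4 left 3. Over all genes 1930 to 2476 passed in either direction with 1 array left out, against 2352 with all 16 arrays. Rrm2, Cdca3 and Cenpa passed whichever array was left out.

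The genes that stayed short of the threshold show how far that array lay from the rest. Nusap1 stood at 7.30 on high cholesterol WT replicate 3, against 4.46 to 5.66 (median 4.78) on the other 15 arrays. Birc5 stood at 8.31 there, against 5.28 to 6.61 (median 5.97), and Kif22 at 7.07, against 4.80 to 6.06 (median 5.28). For these 3 genes no other array came within a log2 unit of it. Aurka was at 6.48, against 4.53 to 5.22 (median 4.88), and Top2a at 6.33, against 4.41 to 5.15 (median 4.58). Tk1 and Bub1b were the exceptions: Tk1 was at 8.74, against 7.34 to 8.97 (median 8.35), and Bub1b at 5.09, against 4.40 to 5.21 (median 4.85).

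**Figure D3:**
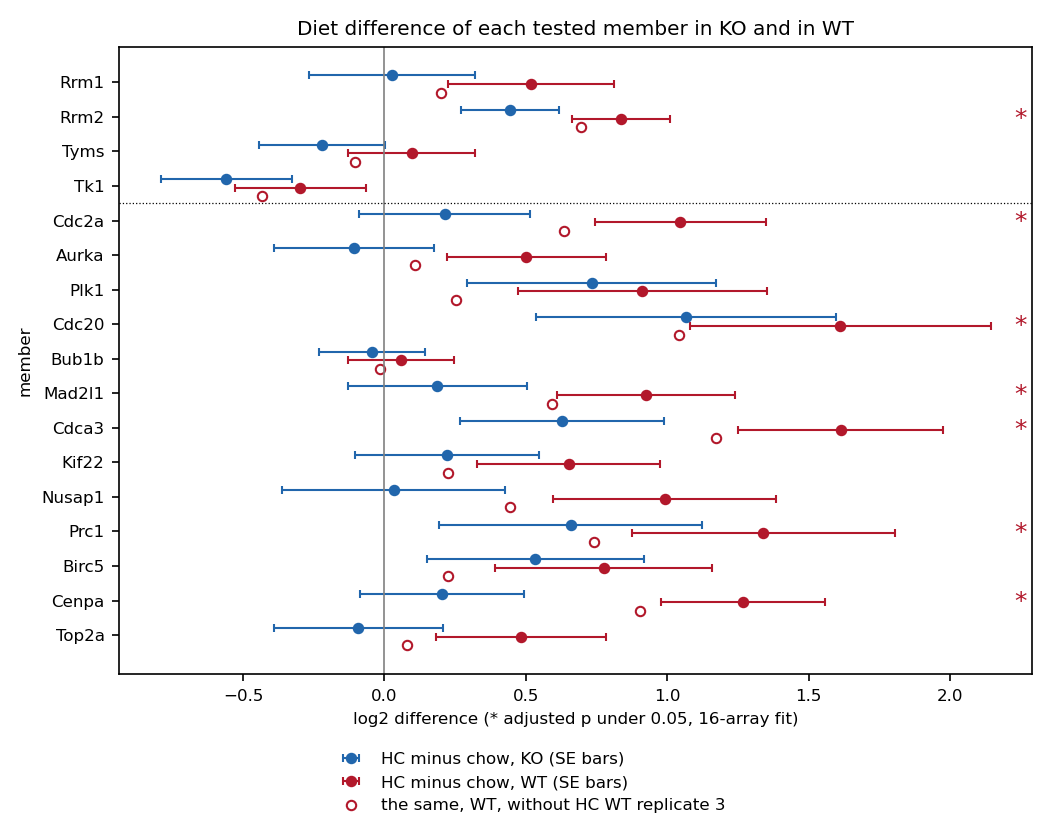
Log2 difference between high cholesterol and chow for each tested gene in KO (blue) and in WT (red), with standard errors from limma. Open circles give the WT difference without high cholesterol WT replicate 3, stars mark adjusted p under 0.05 in the fit of 16 arrays, and the 7 stars all belong to the WT comparison.

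The same diet comparison in KO livers gave 0 of 17 genes past the threshold by limma, with 2 at an unadjusted p under 0.05 (39.9% of all genes), while 15.2% of all genes rose, 12.4% fell and 27.6% passed in either direction. The median difference was -0.10 for DNA synthesis, 0.21 for mitosis and -0.03 for all genes. Rrm2 was at 4.99, 5.48, 5.10 and 4.95 on high cholesterol KO arrays, against 4.97, 4.48, 4.64 and 4.66 on chow KO arrays. It overlapped by 1 chow array and differed by 0.44 ± 0.17 (adjusted p = 0.0643). Tk1 was at 8.35, 7.57, 7.34 and 7.68 on high cholesterol KO arrays, against 8.59, 8.10, 8.06 and 8.43 on chow KO arrays, a difference of -0.56 ± 0.23 (adjusted p = 0.0802). It passed, lower on the high cholesterol diet, without high cholesterol KO replicate 1 (-0.76, adjusted p = 0.0192) and without high cholesterol WT replicate 4 (adjusted p = 0.0482). These values are of the brightest Tk1 probe. A dimmer Tk1 probe, also detected on all 16 arrays, differed by -0.06 in KO, and another, detected on 4 arrays, by -0.40. Rrm1 and Tyms differed by 0.03 ± 0.29 (adjusted p = 0.955) and -0.22 ± 0.22 (adjusted p = 0.490).

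Of the mitosis genes in KO livers, Cdc20 had the greatest difference. It was at 6.80, 6.23, 7.47 and 6.05 on high cholesterol KO arrays, against 7.11, 4.79, 4.67 and 5.72 on chow KO arrays, a difference of 1.07 ± 0.53 (adjusted p = 0.142). Chow KO replicate 1 lay inside the high cholesterol range, and without it Cdc20 reached 1.58 (adjusted p = 0.0301) and Rrm2 0.54 (adjusted p = 0.0454). Cdca3 was at 7.30, 6.31, 7.47 and 6.75 on high cholesterol KO arrays, against 6.95, 5.74, 6.33 and 6.31 on chow KO arrays, a difference of 0.63 ± 0.36 (adjusted p = 0.204). Cenpa was at 8.72, 8.56, 8.50 and 7.94 in high cholesterol KO livers, against 8.66, 8.22, 8.10 and 7.92 in chow KO livers, and differed by 0.20 ± 0.29 (adjusted p = 0.633). Prc1 differed by 0.66 ± 0.47 (adjusted p = 0.303), Cdc2a by 0.21 ± 0.30 (adjusted p = 0.632) and Mad2l1 by 0.19 ± 0.32 (adjusted p = 0.690). No gene of the 17 had diet groups that stood apart in KO, against 16% of all genes higher and 14.3% lower. Leaving out high cholesterol WT replicate 3, an array outside this comparison that shares the variance estimate, brought Rrm2 (adjusted p = 0.0386) and Plk1 (0.73, adjusted p = 0.0179) past the threshold.

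The test of whether the diet difference itself depends on genotype is the interaction. None of the 17 genes passed it by limma, and 0.0108% of all genes did. At an unadjusted p under 0.05 there was 1 of the 17, against 10.4% of all genes. The interaction was negative, meaning a lower diet difference in KO than in WT, for all 17, while 51.2% of all genes were positive. Cenpa was at -1.07 ± 0.41 (adjusted p = 0.411), Cdca3 at -0.99 ± 0.51 (adjusted p = 0.517) and Cdc2a at -0.83 ± 0.43 (adjusted p = 0.517). Without high cholesterol WT replicate 3 the interaction was negative for 14 of 17, and its median was -0.17 for mitosis, against -0.61 with that array, and -0.15 for DNA synthesis, against -0.36.

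On the high cholesterol diet, KO set against WT livers gave 0 of 17 genes past the threshold by limma, with 6 at an unadjusted p under 0.05, against 9.84% of all genes at that level. Over all genes 0.162% passed in either direction, 0.054% higher and 0.108% lower in KO. No gene of the 17 had KO and WT arrays that stood apart, against 1.81% of all genes higher and 2.1% lower. Of the 17 genes 16 were lower in KO on average, with a median of -0.53 for DNA synthesis and -0.44 for mitosis against 0.01 for all genes. Mad2l1 was at 6.01, 5.03, 6.05 and 5.31 in high cholesterol KO livers, against 6.36, 6.07, 7.44 and 5.91 in high cholesterol WT livers, a difference of -0.84 ± 0.32 (adjusted p = 0.363). Tk1 differed by -0.60 ± 0.23 (adjusted p = 0.378), Rrm1 by -0.52 ± 0.29 (adjusted p = 0.600) and Rrm2 by -0.43 ± 0.17 (adjusted p = 0.414). Cdc20, by contrast, averaged 6.64 ± 0.64 in high cholesterol KO and 6.62 ± 1.15 in high cholesterol WT livers (SD, n = 4 each), a difference of 0.01 ± 0.53, which became 0.58, higher in KO, without WT replicate 3. Without that array the median of the mitosis genes was 0.003, with 7 of 13 genes higher in KO, and the DNA synthesis median was -0.31, with 0 of 4 higher. The lower KO average of the mitosis genes on this diet was thus not seen without that array. That of the 4 DNA synthesis genes, none of which passed, remained, read on the brightest probe of each. Other probes detected on at least 4 arrays differed less in the fit of 16 arrays. Those of Tyms were at 0.01 and -0.03, and those of Tk1 at -0.22 and -0.26.

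On chow, KO set against WT livers gave 0 of 17 genes past the threshold by limma, and 0 at an unadjusted p under 0.05, against 15.9% of all genes. Over all genes 0% passed, and no gene of the 17 had KO and WT arrays that stood apart, against 7.49% of all genes higher and 6.24% lower. The median was -0.13 for DNA synthesis, 0.17 for mitosis and -0.004 for all genes. Cdca3 was at 6.95, 5.74, 6.33 and 6.31 on chow KO arrays, against 5.83, 5.70, 5.44 and 6.08 on chow WT arrays, a difference of 0.57 ± 0.36 (adjusted p = 0.448). Cdc20 differed by 0.56 ± 0.53 (adjusted p = 0.637) and Cenpa by 0.43 ± 0.29 (adjusted p = 0.478). Without chow KO replicate 1 the mitosis median was -0.03.

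The DNA synthesis and the mitosis genes were also compared array by array. Each gene was expressed as its deviation from its mean over 16 arrays, and the deviations were averaged within each set. The mitosis mean minus the DNA synthesis mean was 0.07, 0.36, 0.72 and 0.11 on the high cholesterol KO arrays. In high cholesterol WT livers it was 0.07, -0.06, 0.94 and -0.11, and in chow KO livers 0.17, -0.08, -0.20 and -0.24. In chow WT livers it was -0.33, -0.62, -0.44 and -0.35. Because every gene is centred on its own mean, these values set arrays against each other and do not say which set is higher. Every array of the high cholesterol KO, high cholesterol WT and chow KO groups lay above all chow WT arrays on this measure, a description with no test. High cholesterol WT replicate 3 was highest in both, at 0.91 for DNA synthesis and 1.86 for mitosis, and the other high cholesterol WT arrays lay at 0.09 to 0.14 and 0.00 to 0.17. Chow KO replicate 1 had the highest mitosis mean of the chow arrays, 0.33. The lists of other DNA synthesis and mitosis genes, read below, did not set the chow WT arrays apart in this way. On chow WT replicate 1 these lists averaged -0.04 for mitosis and -0.06 for DNA synthesis. On high cholesterol WT replicate 1 they averaged -0.06 for mitosis and 0.23 for DNA synthesis.

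**Figure D4:**
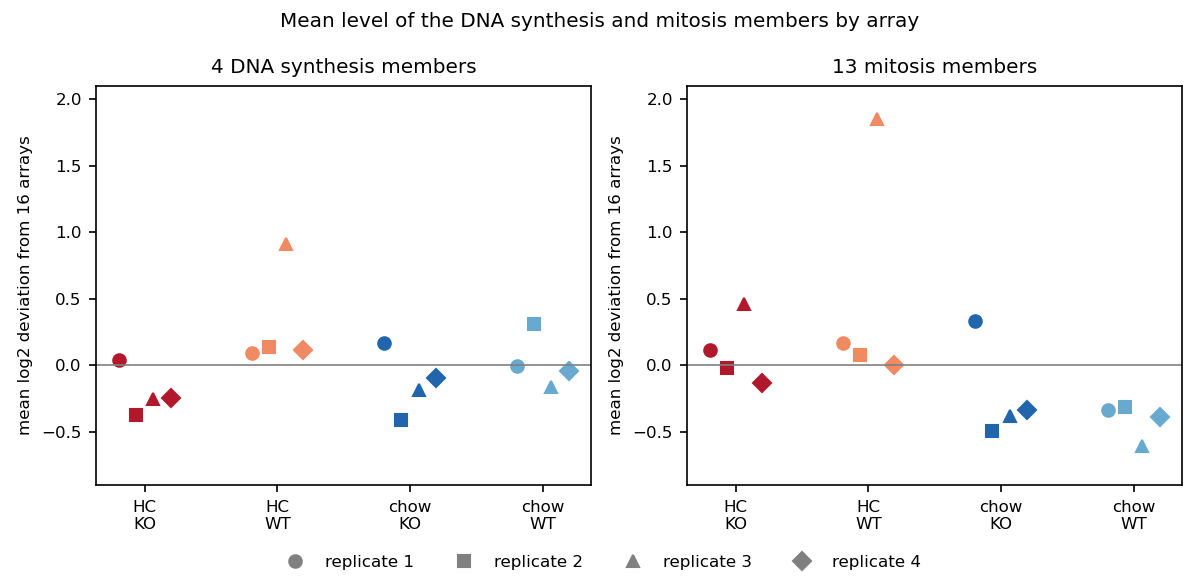
Mean log2 deviation from the 16-array mean for the 4 DNA synthesis genes and the 13 mitosis genes, 1 point per array, by group (HC, high cholesterol). High cholesterol WT replicate 3 stands at 0.91 and 1.86, chow KO replicate 1 at 0.16 and 0.33, and all chow WT arrays lie between -0.60 and -0.32 in the mitosis panel.

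**Figure D5:**
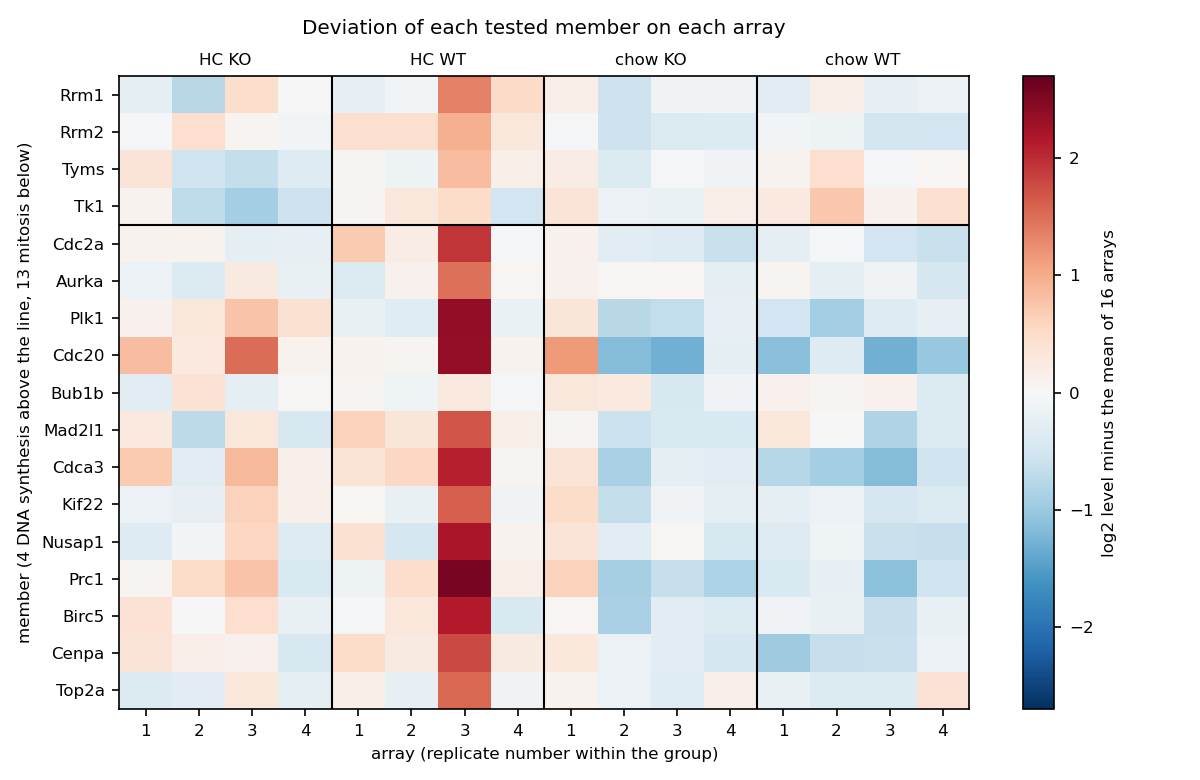
Deviation of each tested gene (rows) on each array (columns, by replicate number within group; HC, high cholesterol) from its 16-array mean, in log2 units. The column of high cholesterol WT replicate 3 is high in nearly every row, with Tk1 and Bub1b the weakest, and chow KO replicate 1 and high cholesterol KO replicate 3 show Cdc20, Prc1 and Cdca3 above the mean.

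Further genes of the same processes were read from lists chosen with earlier results of these data known. Of 35 other tested DNA synthesis genes 3 rose and 5 fell in KO livers on the high cholesterol diet, with a median of 0.01. In WT livers 9 rose and 3 fell, with a median of 0.29. Over all genes 15.2% rose and 12.4% fell in KO, and 13.6% rose and 11.8% fell in WT. Uhrf1, which brings maintenance methylation to newly copied DNA, was at 7.03, 6.30, 8.58 and 6.02 on high cholesterol WT arrays, against 5.12, 5.05, 5.16 and 4.85 on chow WT arrays, and rose by 1.94 ± 0.41 (adjusted p = 0.00265). In KO livers Uhrf1 was at 5.19, 4.84, 5.99 and 5.07 on the high cholesterol diet, against 5.70, 4.64, 4.96 and 5.66 on chow, a difference of 0.03. Lig1, which seals Okazaki fragments, was at 7.01, 6.02, 8.16 and 5.99 in high cholesterol WT livers, against 5.48, 5.29, 5.32 and 5.08 in chow WT livers, and rose by 1.50 ± 0.37 (adjusted p = 0.00723). In KO livers its difference was 0.01. On the high cholesterol diet Uhrf1 differed between KO and WT by -1.71 ± 0.41, which did not pass (adjusted p = 0.133).

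Among these genes Dbf4 and Ung passed in both genotypes. Dbf4, the activating subunit of the kinase that fires replication origins, rose by 0.95 ± 0.19 in KO (adjusted p = 0.00153) and by 0.95 ± 0.19 in WT livers (adjusted p = 0.00183). Ung, which removes uracil from DNA, rose by 0.93 ± 0.25 in KO (adjusted p = 0.00991) and 1.01 ± 0.25 in WT (adjusted p = 0.00634). Other genes were lower on the high cholesterol diet in KO livers. Pola2 differed by -0.87 ± 0.25 (adjusted p = 0.0157), Orc6l by -0.59 ± 0.17 (adjusted p = 0.0163) and Shmt1 by -0.59 ± 0.18 (adjusted p = 0.0198). These were not read with an array left out. In WT livers Pold1, the catalytic subunit of polymerase delta, rose by 0.98 ± 0.28 (adjusted p = 0.0172), and Pold2, its accessory subunit, fell by 0.85 ± 0.17 (adjusted p = 0.00183). The Pold1 call was lost without high cholesterol WT replicate 3 (0.66, adjusted p = 0.0521) and without chow WT replicate 3 (0.87, adjusted p = 0.0535).

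Of 13 other tested mitosis genes 0 rose and 1 fell in KO, and 3 rose and 2 fell in WT livers on the high cholesterol diet. The medians were 0.04 in KO and 0.52 in WT. The shares of all genes that rose and fell were 15.2% and 12.4% in KO, and 13.6% and 11.8% in WT. Foxm1, the transcription factor of G2 and mitosis genes, was at 5.51, 5.70, 6.36 and 5.67 on high cholesterol WT arrays, against 4.96, 5.29, 4.96 and 4.92 on chow WT arrays, and rose by 0.78 ± 0.20 (adjusted p = 0.00839). The kinetochore gene Spc25 rose by 0.81 ± 0.22 (adjusted p = 0.0119) and the condensin gene Ncapd2 by 0.76 ± 0.25 (adjusted p = 0.0336). The Ncapd2 call was lost without high cholesterol WT replicate 3 (0.50, adjusted p = 0.113), chow WT replicate 2 (adjusted p = 0.0927) or chow WT replicate 4 (adjusted p = 0.0894). Cenpm, a centromere protein, fell by 0.96 ± 0.18 in KO (adjusted p = 0.000845) and by 0.79 ± 0.18 in WT (adjusted p = 0.00387), opposite in direction to Cenpa in WT. Ckap5, a microtubule polymerase, fell by 0.60 ± 0.16 in WT (adjusted p = 0.00945). In the comparisons of KO with WT on either diet and in the interaction, 0 genes of these 2 lists passed by limma. At an unadjusted p under 0.05, the 35 DNA synthesis genes gave 10 for KO against WT on the high cholesterol diet, 4 on chow and 7 for the interaction, and the 13 mitosis genes gave 2, 0 and 2, read against 9.84%, 15.9% and 10.4% of all genes.

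Markers of liver cell types were read in the diet comparisons. There 15.2% of all genes rose and 12.4% fell in KO, and 13.6% rose and 11.8% fell in WT, the shares to set beside these counts. In KO livers 7 of 11 tested macrophage markers rose on the high cholesterol diet and 0 fell, and in WT livers likewise 7 and 0. Their summed level, in linear normalized intensity, was 4334 to 9356 in high cholesterol KO, 5512 to 8094 in high cholesterol WT, 2737 to 3282 in chow KO and 2551 to 3251 in chow WT. Of 8 stellate cell markers 0 rose and 1 fell in KO, and 4 rose and 0 fell in WT, with sums of 5392 to 6649 in high cholesterol KO, 6505 to 8711 in high cholesterol WT, 5183 to 6974 in chow KO and 4032 to 6051 in chow WT. Of 4 ductular markers 2 rose in KO and 1 in WT, with sums of 373 to 800 in high cholesterol KO, 479.8 to 3137 in high cholesterol WT, 209.2 to 316.6 in chow KO and 192.5 to 282 in chow WT. The ductular markers did not move together, with 2 positive and 2 negative diet differences in each genotype. Their median difference was 0.25 in KO and 0.11 in WT, where the greatest was 3.13. For the mean deviation of a list on an array, high cholesterol WT replicate 3 had rank 1 of 16 for the stellate (0.55) and ductular (0.85) markers, rank 2 for macrophage (1.20) and endothelial (0.21) markers, rank 7 for lymphocyte and for neutrophil and marrow markers, and rank 14 for hepatocyte markers (-0.07). Among lymphocyte markers Cd3e, Cd2, Cd8a, Cd4 and Nkg7 were detected on 0 arrays, and so were the marrow markers Ltf and Gata1. The hepatocyte markers, which check the tissue, summed to 75930 to 84310 in high cholesterol KO, 72000 to 80640 in high cholesterol WT, 81810 to 85480 in chow KO and 81520 to 88050 in chow WT. Of 8 endothelial markers 0 rose and 1 fell in KO and 1 rose and 1 fell in WT, and of 8 hepatocyte markers 1 rose in KO and 1 fell in WT. Of 2 lymphocyte markers 1 rose in each genotype, and of 4 neutrophil and marrow markers 2 rose and 1 fell in each. The part of these cell types in the cell cycle values was not tested.

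Probes of the same gene did not always move alike. The other probe of Rrm2, detected on 3 of 16 arrays and so not tested, averaged 4.88 on high cholesterol WT arrays, against 4.99 on chow WT arrays, opposite in direction to the probe that passed. Cdc20 had 4 kept probes, with WT diet differences of 1.61, 0.97, 0.73 and 0.48, all positive, of which the brightest alone passed (adjusted p = 0.0328 over all kept probes). Tk1 had 3, at -0.30, 0.11 and -0.32. For Tyms the brightest probe, detected on all 16 arrays, differed by -0.22 between the diets in KO livers, while a dimmer probe, detected on 2 of 4 high cholesterol KO and 0 of 4 chow KO arrays, differed by 0.59 (adjusted p = 0.0199 over all kept probes).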

How the data were processed

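Liver RNA of 16 samples was read on Illumina arrays with GenomeStudio 2009.1, per the submitters' processing notes. The deposited signal table holds an intensity per probe, background-subtracted and not normalized between arrays, per the file headers and its values, and beside it a deposited detection p-value. A deposited table of linear, quantile-normalized intensity served as an alternative.

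Signals were processed with R 4.3.3 and limma 3.58.1: normexp from the detection p-values (offset 16), quantile normalization and log2. A probe was kept if it was detected (p under 0.05) on 4 or more arrays, as 12248 of 25697 were, and the brightest kept probe stood for each of 9265 genes. The fit was lmFit and eBayes with 4 group means over 16 arrays, with Benjamini-Hochberg adjustment over all genes at 0.05 and two-sided moderated tests in 5 comparisons that share arrays. For a gene detected by none of its probes in a group, the ratio of means was bounded with the lowest detected signal of each array. This bound does not cover the spread between arrays. The number of arrays limits the precision, and the files give no slide or scan date, so no block on them was run.

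The members, the lists of other DNA synthesis and mitosis genes and the cell type lists were chosen with earlier results of these data known. All members could be named, and up to 6 genes of each other list per comparison, those with the smallest p. Promoters came from RefSeq (GRCm38.p6) by symbol. Replicate numbers were not taken as pairs: over 24 pairs of same-numbered samples the correlation of deviations ran from -0.12 to 0.27, with 7 over 0.1, and the labels name nothing that such samples share. Alternatives were other background, scaling, filter, probe, model and block settings, and each array left out. Python 3.11.15 and matplotlib 3.10.9 drew the figures.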

Additional observations from a re-analysis of the deposited data

Results flagged for a closer look

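Each group of 4 arrays was searched for an array whose gap to its nearest neighbour took up most of the group's range (Dixon's rule), in 76 groups of values, 68 of them single genes. Chance flags about 1 in 20 such groups, and 8 were found. High cholesterol WT replicate 3 stood far above its group for Plk1 (7.91, next 5.34), Cdc20 (8.34, next 6.06), Kif22 (7.07, next 5.49) and Cenpa (10.15, next 8.87), all log2 normalized intensities. The same array stood above its group for the mean deviation of the DNA synthesis genes (0.91, next 0.14) and of the mitosis genes (1.86, next 0.17). Top2a was highest on high cholesterol KO replicate 3 (5.07, next 4.52), the 1 array of its group where it was detected. Bub1b was lowest on chow WT replicate 4 (4.45, next 4.89), where it was not detected. What sets high cholesterol WT replicate 3 apart was not tested.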

How the results depend on the processing

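In WT livers the high cholesterol diet changed 7 members in the fit of 16 arrays and 3 to 8 with 1 array left out. Over all genes it changed 2352 (25.4%), 1930 to 2476 with 1 array left out, and 26.1% with median scaling. Shares of all genes under the other settings are not given here. The diet changed 4 members (Rrm2, Cdc20, Cdca3 and Cenpa) when only the groups compared were fitted. With no detection filter 5 of 29 passed. The same 7 passed with no background correction, cyclic loess, median scaling, the authors' normalized values and array weights. The mean of probes gave 6, without Cdc20, and a variance trend and robust estimation together gave 5, without Cdc20 and Prc1. A stricter filter (detection p under 0.01 on all arrays of a group) gave 5, without Rrm2 and Cdc2a. In KO livers the count was 0, and 0 to 2 with 1 array left out. Over all genes it was 2561 (27.6%) in KO, 1965 to 2736 with 1 array left out, and 25.5% with median scaling. The member count in KO was 1 with no background correction, the authors' values or array weights (Rrm2 each time), median scaling (Tk1), only the groups compared (Plk1) and no filter (Bub1, lower). Replicate numbers as a block gave 8 members in WT (Nusap1 added) and changed no other member count. Of 16 arrays 11 correlated best with an array of their own number, a hint from the data and not from the design. The cause of these differences was not tested, except that fewer genes or samples enter by construction.

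Over all genes, chow KO against chow WT gave 0 calls, and 6 with no background correction or the authors' values, 3 with cyclic loess, no filter or the mean of probes, 2 with median scaling or the replicate block, 1 with a variance trend and robust estimation together, 77 with only the groups compared, 354 with array weights, and 0 to 8 with 1 array left out. High cholesterol KO against WT gave 15, and 26 with median scaling, 0 with only the groups compared and 7 to 25 with 1 array left out. The interaction gave 1, and 3 with median scaling or array weights, 0 with no filter or the replicate block, and 0 to 9 with 1 array left out. Median scaling moved the median of all genes to -0.14 (high cholesterol KO minus WT), -0.12 (chow KO minus WT) and -0.11 (diet in KO), and made 43.0% of diet calls higher in KO, against 55.1% in the fit of 16 arrays, and 45.5% in WT, against 53.7%.

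Signs turned for differences that had not passed, some of them well away from 0. With 1 array left out, the range was -0.061 to 0.11 for Bub1b and -0.10 to 0.22 for Tyms in the WT diet comparison, and -0.18 to 0.19 for Lig1, -0.29 to 0.10 for Pold1, -0.17 to 0.23 for Rrm1, -0.087 to 0.24 for Spc25 and -0.21 to 0.18 for Uhrf1 in the KO diet comparison. Between KO and WT on the high cholesterol diet it was -0.26 to 0.58 for Cdc20, -0.65 to 0.025 for Cdca3 and -0.84 to 0.060 for Prc1, and for the Cdc20 interaction -0.85 to 0.025. Cdc20 was at -0.19 with median scaling and -0.20 with the mean of probes in high cholesterol KO against WT. With the mean of probes Tyms was at 0.21 for the KO diet difference and 0.0064 for the interaction. With array weights the KO diet difference was -0.022 for Rrm1, -0.039 for Uhrf1 and -0.071 for Lig1. Of 35 further member differences 19 turned sign under at least 1 setting. Without high cholesterol WT replicate 3, Plk1 reached 0.65, Birc5 0.22 and Kif22 0.17 in high cholesterol KO against WT. Probes near background limit all of these values.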
